A study of Mus musculus with 6 samples.

Results

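The cadherins, protocadherins, FAT and Dachsous proteins, CELSR receptors, calsyntenins and catenins of the embryonic mouse forelimb were described from RNA of sorted attachment-forming progenitors. Members were all genes of the deposited table whose symbol names one of these families, whatever their values: 53 of 13158 genes. The families and gene lists were chosen with earlier results of these data known. They comprised 10 classical cadherins, the atypical cadherin Cdh13, 5 catenins, 10 delta protocadherins, Pcdh15, 17 beta protocadherins of the clustered locus, 4 FAT and Dachsous genes, 2 CELSR genes and 3 calsyntenins. Ctnnb1, the gene of beta-catenin, lies outside the naming rule and is given with the partner genes. The alpha and gamma protocadherins were not analysed here.

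Each library held cells of wild-type C57BL/6 embryos at embryonic day 13.5, untreated per the labels, that carried both Sox9-CreERT2;Rosa26-tdTomato and ScxGFP. The tdTomato label marks cells in which the Sox9-driven, tamoxifen-inducible Cre was active and their descendants, and ScxGFP reports Scx, a tendon precursor factor. The induction of Cre is not described in the labels. By the labels, the 3 proximal and 3 distal libraries differ in the part of the forelimb from which the cells were sorted. Both marker genes were detected in every library, with Sox9 at 93.3 to 126 CPM proximally and 269 to 365 CPM distally, and Scx at 949 to 1642 and 2416 to 4122 CPM. CPM are counts scaled to a common library total with TMM, which corrects for differences in composition between libraries.

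Cadherins are membrane proteins that hold neighbouring cells together through calcium-dependent contacts of their extracellular repeats. The tails of classical cadherins bind beta-catenin or plakoglobin (Jup) and the delta-catenins such as Ctnnd1, and alpha-catenin (Ctnna1) links that complex to actin. Protocadherins have similar extracellular repeats but do not use this catenin chain, and FAT, Dachsous and CELSR proteins are giant relatives that pass polarity and growth information between cells. In limb mesenchyme N-cadherin (Cdh2) is known for its part in the condensation of cells that precedes cartilage.

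Libraries held 1585631 to 2623788 counts, of which the 53 members took 0.107% to 0.157%, or 15091 counts in all. A count of 0 allows up to 3 counts, which is 1.08 to 2.01 CPM in these libraries. Of the 53 members, 25 had enough counts to be tested, with at least 66 counts over the 6 libraries, and 28 did not, with 8 to 59. Bulk MARS-seq reads transcript 3' ends, so counts were not divided by gene length, and levels are compared between regions and not between genes. Proximal library 1 stood apart in its share of 45S pre-ribosomal RNA (11.7% of counts, against 2.20% to 6.81% in the others). Libraries are numbered 1 to 3 in each region, for the numbers 389, 390 and 393 in their titles, and values are always given in that order. Both regions share these title numbers. Whether the numbers mark a shared source is not known here, and the test did not treat same-numbered libraries as pairs. Nothing states that the libraries came from separate embryos, so the p-values reflect the spread among libraries alone, part of which may be technical.

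Of the 25 tested members, 3 passed the edgeR quasi-likelihood test at an adjusted p of 0.05, all higher in proximal libraries: the delta protocadherin gene Pcdh19 (4.31-fold) and the classical cadherin genes Cdh15 (5.90-fold) and Cdh4 (2.42-fold). None passed as higher in distal libraries in this edgeR test, nor in DESeq2. In edgeR, 2 were higher in distal libraries at an unadjusted p under 0.05, beside 458 of all 9512 genes tested. Over all 9512 genes tested, 3.39% passed, 1.11% as higher in distal and 2.27% as higher in proximal libraries. The fold changes of 19 of the 25 members were negative, that is lower in distal libraries, against 48.8% of all tested genes. The median log2 fold change, distal over proximal, was -0.29 for the members and 0.01 for all genes. In the fit that dropped both proximal library 1 and distal library 3, 4 members passed, the same 3 and Jup. That fit called 862 genes in all, against 322 with all libraries. Pcdh19 was the only member that passed when distal library 1 was dropped. Fewer cells of a type and less RNA per cell cannot be told apart in such bulk libraries.

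**Figure D1:**
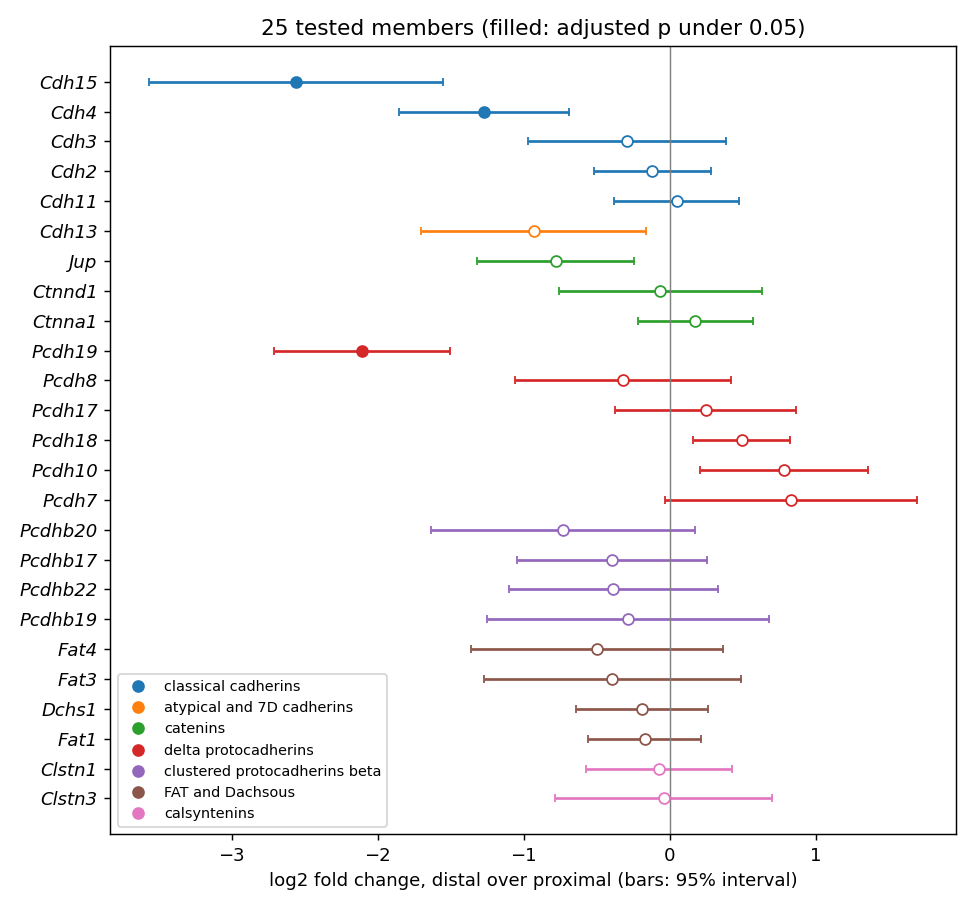
Log2 fold change, distal over proximal, of the 25 tested members with 95% intervals, coloured by family; filled points passed an adjusted p of 0.05. The 3 filled points, Cdh15, Pcdh19 and Cdh4, lie at -2.56, -2.11 and -1.27, and the other 22 points lie between -0.93 and 0.83.

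The promoters of the members with the largest differences, Pcdh19 and Cdh15, are shown for orientation, 250 bases before to 50 after the start of each gene in RefSeq (GRCm38.p6). Such a window was at hand for 25 of the 53 members, not for Cdh4. Both read 5′ to 3′ on the gene's own strand. The GENCODE M21 annotation of GRCm38 places the start of Cdh15 earlier, at 122847966, so by that annotation the Cdh15 window lies inside the gene. Capitals mark a CCAAT box (CCAAT on either strand) in Pcdh19, at chrX:133688944-133689243 on the minus strand, and the letters TGACAG on either strand, the core bound by MEIS homeobox factors, in Cdh15, at chr8:122848124-122848423 on the plus strand.
Pcdh19: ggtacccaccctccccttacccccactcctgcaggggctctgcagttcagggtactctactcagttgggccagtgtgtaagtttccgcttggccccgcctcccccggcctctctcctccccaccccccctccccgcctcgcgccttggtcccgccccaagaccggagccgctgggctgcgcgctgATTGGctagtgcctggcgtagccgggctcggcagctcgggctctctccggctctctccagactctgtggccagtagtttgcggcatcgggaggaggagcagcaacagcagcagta
Cdh15: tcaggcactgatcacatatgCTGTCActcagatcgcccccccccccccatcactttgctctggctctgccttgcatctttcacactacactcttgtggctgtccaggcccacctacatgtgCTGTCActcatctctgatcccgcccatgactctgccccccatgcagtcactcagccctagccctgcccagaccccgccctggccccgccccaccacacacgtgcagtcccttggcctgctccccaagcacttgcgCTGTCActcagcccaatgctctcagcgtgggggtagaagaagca

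The Pcdh19 window held 18 CpG dinucleotides at 67.7% GC and the Cdh15 window 7 at 61.3%, against a median GC of 52.7% over all 32851 promoters of the table. The letters TGACAG occurred 3 times in the Cdh15 window and not in that of Pcdh19. At least 1 such match was present in 19.2% of all promoters and 3 or more in 0.204%. The 3 matches in Cdh15 all stood within the same longer stretch, gCTGTCActca, and so are not independent of each other. The motif marked in each window was chosen by hand from the motifs counted here. E-boxes (CANNTG), the core bound by myogenic and other basic helix-loop-helix factors, occurred 4 times in Cdh15 and 1 time in Pcdh19; 72.3% of promoters had at least 1 and 17.6% had 3 or more. No E-box overlapped the marked letters in either window. CCAAT was found 1 time in each window and in 37.4% of promoters. The PBX-HOX composite TGATTNAT was in neither window and in 3.20% of promoters. Matches describe these letters and do not show binding.

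Of the 5 tested classical cadherins, 2 were lower in distal libraries and 3 did not pass the test. Cdh15 encodes M-cadherin, the cadherin of skeletal muscle precursors (chromosome 8, 122847966 to 122867397 in the GENCODE M21 annotation of GRCm38). It stood at 20.1, 34.2 and 23.0 CPM proximally and 3.46, 8.22 and 1.67 CPM distally. Every proximal library was above every distal one, and the distal values rest on 7, 13 and 3 counts. The log2 fold change was -2.56 (standard error, SE, 0.45; 95% interval -3.57 to -1.55; edgeR adjusted p = 0.011). It no longer passed when proximal library 2 or distal library 1 was dropped, at edgeR adjusted p = 0.061 and 0.070.

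Transcripts of skeletal muscle were also higher in proximal libraries. The summed level of 9 muscle markers, of 14 listed, was 464, 597 and 208 CPM proximally and 45.0, 52.5 and 36.2 CPM distally. All 9 had a higher mean in proximal libraries and each was detected in both regions. The myogenic factor gene Myod1 was at 24.1, 50.2 and 15.8 CPM proximally and 0.495, 1.26 and 1.67 CPM distally. Proximal library 2 was the highest of the 6 for Cdh15, Myod1 and the marker sum. Between proximal libraries 1 and 3 the order differed: Cdh15 was higher in library 3, and Myod1 and the marker sum in library 1. The part of muscle transcripts in the Cdh15 difference was not tested.

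**Figure D2:**
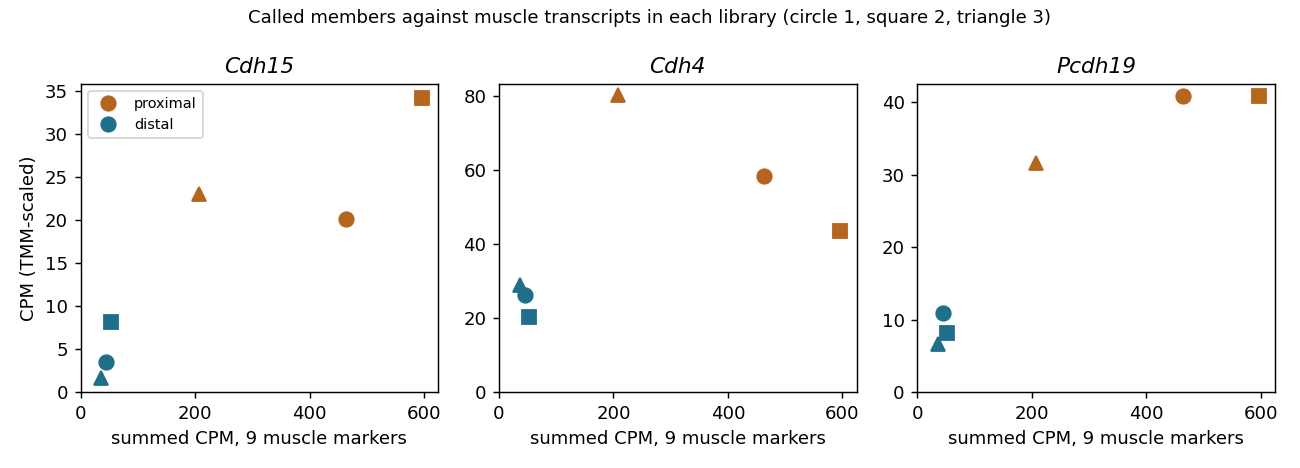
CPM of Cdh15, Cdh4 and Pcdh19 in each of the 6 libraries (vertical axes) against the summed CPM of 9 skeletal muscle markers (horizontal axes); colour marks the region and symbol the library number. Marker sums are 208 to 597 CPM in proximal and 36.2 to 52.5 CPM in distal libraries, so the regions are apart on both axes in all 3 panels.

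Cdh4 encodes R-cadherin, a close relative of N-cadherin first known from retina (chromosome 2, 179442431 to 179899373). Its level was 58.2, 43.6 and 80.2 CPM proximally and 26.2, 20.2 and 29.0 CPM distally. The regions did not overlap, and the lowest proximal library was 1.51 times the highest distal one. The log2 fold change was -1.27 (SE 0.26; 95% interval -1.86 to -0.69; edgeR adjusted p = 0.025). Muscle markers were higher in proximal libraries here too; among those, the sum was lowest in library 3, where Cdh4 was highest, and highest in library 2, where Cdh4 was lowest. Their part in the Cdh4 difference was not tested. Cdh4 no longer passed when proximal library 3, distal library 1 or distal library 2 was dropped (edgeR adjusted p = 0.12, 0.097 and 0.11), and the log2 fold change lay between -1.46 and -1.005 over the 6 fits with a library left out.

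The cadherins best known from mesenchyme did not pass. Cdh11, the OB-cadherin of mesenchymal and osteoblast-lineage cells, was at 214, 146 and 236 CPM proximally and 200, 238 and 179 CPM distally. The regions overlapped throughout, at a log2 fold change of 0.05 with a 95% interval of -0.38 to 0.47. Cdh2 was at 99.0, 85.5 and 88.5 CPM proximally and 75.2, 74.6 and 101 CPM distally, with a log2 fold change of -0.12 and a 95% interval of -0.52 to 0.28. At their far ends these intervals reach 1.39-fold for Cdh11 and 1.43-fold for Cdh2, and they include no difference.

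Cdh3, the P-cadherin of placenta and surface epithelia, was at 28.1, 33.1 and 36.0 CPM proximally and 17.8, 21.5 and 40.7 CPM distally. The highest value of all was in distal library 3, so the regions overlapped (log2 fold change -0.29, 95% interval -0.97 to 0.38; edgeR adjusted p = 0.88). The 6 epidermal markers analysed, of 10 listed, summed to 68.9 to 83.1 CPM proximally and 52.9 to 81.6 CPM distally. The mean was higher in proximal libraries for 5 of the 6. Counts over the proximal and the distal libraries were 14 and 3 for the keratinocyte gene Krt5, 3 and 3 for Krt14, and 14 and 12 for Epcam. None of the 6 was at 0 in a whole region. Their part in the Cdh3 values was not tested. Cdh13, T-cadherin, which is held to the membrane by a lipid anchor and lacks the catenin-binding tail, was at 10.04, 11.04 and 13.3 CPM proximally and 7.42, 3.79 and 6.69 CPM distally. The regions did not overlap, but the difference missed the threshold (log2 fold change -0.93, 95% interval -1.70 to -0.16; edgeR adjusted p = 0.28).

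**Figure D3:**
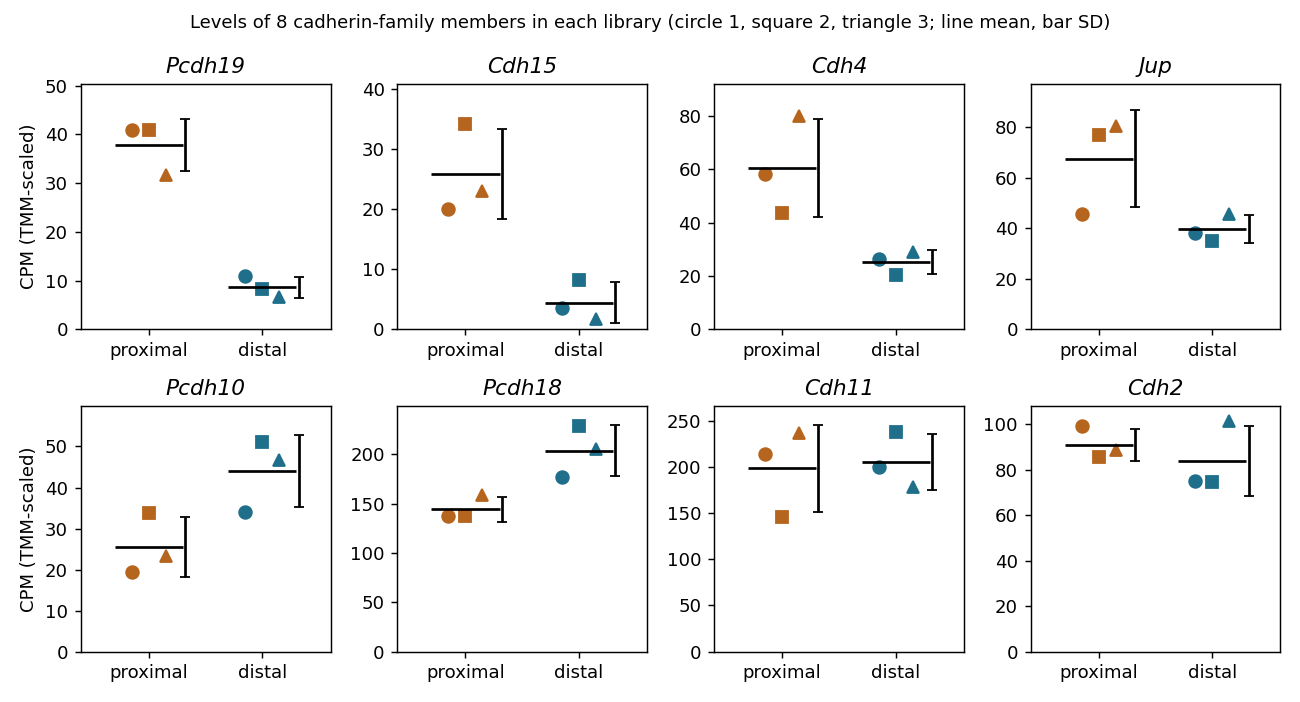
CPM of 8 members in each library, with circles, squares and triangles for libraries 1, 2 and 3 of a region, a line at the mean and a bar for the SD (n = 3); each vertical axis starts at 0. Pcdh19, Cdh15 and Cdh4 separate the regions, with proximal means of 37.8, 25.8 and 60.7 CPM and distal means of 8.60, 4.45 and 25.1 CPM, while Cdh11 and Cdh2 overlap.

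None of the 3 tested catenins passed in edgeR or in DESeq2. In edgeR, 1 had an unadjusted p under 0.05, beside 1031 of all 9512 genes tested. Jup, plakoglobin, which can take the place of beta-catenin in the cadherin complex and also builds desmosomes, came nearest. Its level was 45.5, 76.7 and 80.2 CPM proximally and 38.1, 34.8 and 45.7 CPM distally. Proximal library 1 lay just below distal library 3, and the other 2 proximal libraries were above all distal ones. The log2 fold change was -0.78 (SE 0.24; 95% interval -1.32 to -0.24; edgeR adjusted p = 0.16). Jup passed without proximal library 1 (edgeR adjusted p = 0.022), where 334 genes passed in all. It also passed in the fit that dropped both proximal library 1 and distal library 3 (edgeR adjusted p = 0.0046), where 862 genes passed. With all libraries, 322 genes passed. The adjusted p of Jup ranged up to 0.51 over all alternatives.

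Ctnna1, the alpha-catenin that joins the complex to actin, was at 59.5, 68.4 and 75.9 CPM proximally and 69.3, 84.7 and 77.4 CPM distally, with a log2 fold change of 0.17 (95% interval -0.22 to 0.57). Ctnnd1, the delta-catenin that keeps cadherins at the membrane, was at 51.5, 42.5 and 29.1 CPM proximally and 39.6, 53.7 and 23.4 CPM distally. It varied within each region by more than between them, and its log2 fold change of -0.06 had a 95% interval of -0.76 to 0.63. A transcript end of Ctnnd1 lies within 1000 bases of an exon of the predicted gene Gm28635 on the same strand, so its counts are uncertain. Beta-catenin itself, Ctnnb1, did not pass either, at 662, 551 and 771 CPM proximally and 667, 714 and 638 CPM distally (log2 fold change of 0.02 with an SE of 0.15). Ctnna2 and Ctnnd2, which are best known from neurons, had 17 and 40 counts in all and were not tested.

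Of the 6 tested delta protocadherins, 4 had positive and 2 had negative fold changes. Pcdh19 was the only one that passed and had the smallest p of all members. It is an X-linked gene (chromosome X, 133582860 to 133688987), needed in the brain, whose product is known in zebrafish to act in a complex with N-cadherin. Its level was 40.8, 40.8 and 31.7 CPM proximally and 10.9, 8.22 and 6.69 CPM distally. The lowest proximal library was 2.91 times the highest distal one. The log2 fold change was -2.11 (SE 0.27; 95% interval -2.71 to -1.51; edgeR adjusted p = 0.0020), and it passed in all 16 alternative fits, with adjusted p of 2.56e-06 to 0.014. The long non-coding gene Gm26851 shares exon sequence with it on the opposite strand, away from its annotated transcript ends.

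Because Pcdh19 is X-linked, transcripts that differ between the sexes are given beside it. Xist, expressed from the inactive X of females, had 27, 0 and 17 counts in proximal and 65, 0 and 2 counts in distal libraries. The Y-linked gene Ddx3y had 3, 28 and 2 counts in proximal and 2, 43 and 16 in distal libraries. The mix of these transcripts thus varied between libraries of a region and between the number 3 libraries of the regions. Muscle markers, whose sums are given above, were also higher in proximal libraries. Within the proximal libraries Pcdh19 was lowest in library 3, which had the lowest marker sum (208 CPM), and level in libraries 1 and 2, whose sums were 464 and 597 CPM. Within the distal libraries the lowest Pcdh19 level and the lowest sum (36.2 CPM) were both in library 3, while the highest Pcdh19 level was in library 1 and the highest sum (52.5 CPM) in library 2. The parts of sex and of muscle transcripts in the Pcdh19 difference were not tested.

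Other delta protocadherins had higher values in distal libraries without passing in the fit with region as the only term. Pcdh18 was at 137, 137 and 159 CPM proximally and 177, 228 and 206 CPM distally. The regions did not overlap, but the difference was small, at 1.41-fold (log2 fold change of 0.49 with an SE of 0.15, 95% interval 0.16 to 0.82; edgeR adjusted p = 0.15). Pcdh10 was at 19.4, 33.7 and 23.4 CPM proximally and 34.1, 51.2 and 46.8 CPM distally, with proximal library 2 just under distal library 1. Its log2 fold change was 0.78 (SE 0.26; 95% interval 0.21 to 1.35; edgeR adjusted p = 0.20; 0.15 to 0.52 with a library left out). Pcdh10 passed in 1 of 16 alternative fits, that with library number as a replicate block (edgeR adjusted p = 0.045). Proteins of this subgroup, among them Pcdh10, Pcdh17, Pcdh18 and Pcdh19, are known to bind the WAVE regulators of actin through their tails.

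Pcdh17 was at 9.37, 10.5 and 13.0 CPM proximally and 12.9, 13.9 and 12.8 CPM distally, with a log2 fold change of 0.25 and a 95% interval of -0.37 to 0.87. Pcdh7 and Pcdh8, outside the rule for named genes and added after their values were seen, completed the tested group. Pcdh7 was at 10.7, 4.42 and 7.91 CPM proximally and 9.90, 19.0 and 12.3 CPM distally (log2 fold change 0.83, 95% interval -0.03 to 1.69). Pcdh8 was at 14.7, 15.5 and 11.2 CPM proximally and 13.4, 12.6 and 6.69 CPM distally (log2 fold change -0.32, 95% interval -1.06 to 0.42). A transcript end of Pcdh8 lies inside or within 1000 bases of an exon of the antisense gene Gm9748. Where these genes overlap, reads cannot be told apart without the strand setting.

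Over all tested members, 7 had CPM ranges that did not overlap between regions, against 16.2% of all tested genes. They were Pcdh19, Cdh15, Cdh4, Cdh13 and Pcdhb17 with higher values in proximal libraries, and Pcdh18 and Pcdh10 with higher values in distal ones. The same number, 7, had an unadjusted p under 0.05 in edgeR, among 1031 of 9512 genes.

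The 17 beta protocadherins analysed lie in a cluster on chromosome 18, from Pcdhb3 at 37300799 to Pcdhb22 at 37524479, all on the plus strand. Positions in the order are counted among these 17 alone. Their products combine in many mixtures on neurons to give each cell a surface identity. Of the 17 genes, 16 carry a single annotated exon, and Pcdhb22 is the exception. In the last 500 bases of 16 of them no stretch of 50 bases was shared with another clustered protocadherin, and in Pcdhb21 90% were, since its 3' end overlaps Pcdhb22. The 4 that could be tested, Pcdhb17, Pcdhb19, Pcdhb20 and Pcdhb22, were among the last 6 genes in chromosomal order. The first 11 genes in that order had 12 to 59 counts each and were not tested.

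None of the 4 passed in edgeR or DESeq2, and none had an unadjusted p under 0.05 in edgeR, with log2 fold changes from -0.73 to -0.29. Pcdhb17 was at 12.7, 11.6 and 14.0 CPM proximally and 11.4, 7.58 and 10.0 CPM distally, just short of overlap (log2 fold change -0.40, 95% interval -1.05 to 0.25). Pcdhb20 was at 10.0, 5.52 and 10.1 CPM proximally and 5.44, 3.16 and 6.69 CPM distally (log2 fold change -0.73, 95% interval -1.64 to 0.17). Pcdhb22 was at 7.36, 10.5 and 11.5 CPM proximally and 6.93, 7.58 and 8.36 CPM distally, and Pcdhb19 at 5.35, 7.73 and 5.76 and at 7.92, 3.79 and 3.34 CPM. In both the regions overlapped.

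Pooled over the 3 libraries of a region, 13 of the 17 beta genes had fewer counts for the library size in distal than in proximal libraries, and for 3 of them, Pcdhb3, Pcdhb20 and Pcdhb21, the exact 95% interval of the ratio lay below 1. Over all 13158 genes, 49% had fewer counts in distal libraries and 15.1% had such an interval below 1, so the count of 3 is near the background. The beta genes are neighbours in the same libraries and are not independent of each other. Such intervals cover counting error only, without the spread between libraries. Summed over the 17 genes, the level was 80.3, 69.5 and 77.0 CPM proximally and 68.8, 46.1 and 53.5 CPM distally. The highest distal library lay just under the lowest proximal one.

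**Figure D4:**
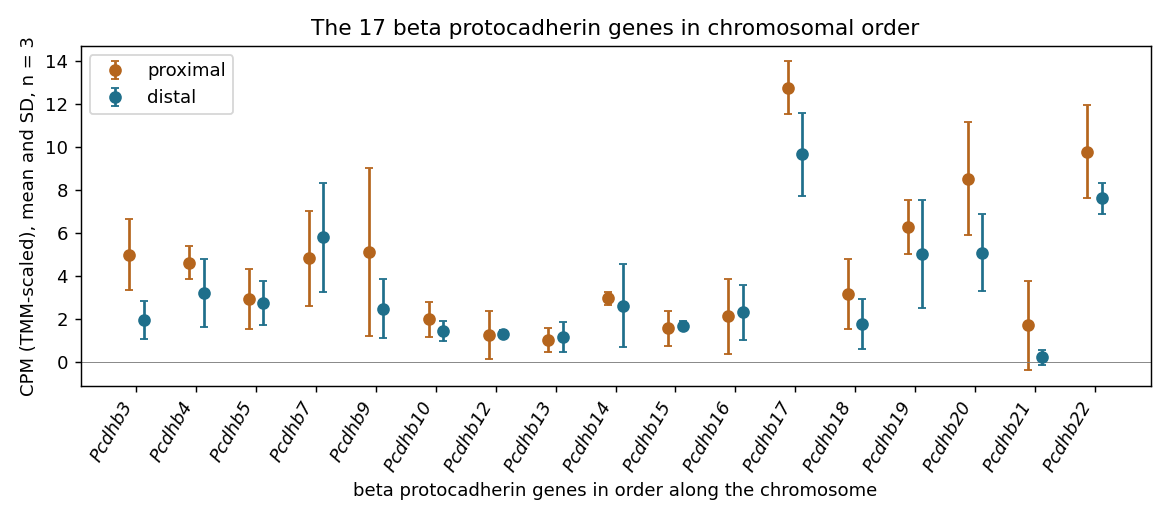
CPM (mean and SD, n = 3) of the 17 beta protocadherin genes analysed, in their order along the chromosome, for proximal and distal libraries. The 4 tested genes, at 6.28 to 12.8 CPM in proximal libraries, stand at the right end of the row, and the error bars of the regions overlap for most genes.

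The FAT and Dachsous genes had log2 fold changes estimated at -0.50 to -0.17, with 95% intervals that all include no change. None passed in edgeR or DESeq2, and none had an unadjusted p under 0.05 in edgeR. Dchs1 encodes the ligand and Fat4 its receptor in a pair known in mice to shape skeletal elements. Dchs1 was at 179, 223 and 259 CPM proximally and 146, 190 and 246 CPM distally. The ranges overlapped for most of their width (log2 fold change -0.19, 95% interval -0.64 to 0.26). A transcript end of Dchs1 lies inside or within 1000 bases of an exon of the pseudogene Gm15645, on the opposite strand. Fat4 was at 5.35, 9.38 and 8.63 CPM proximally and 3.96, 5.69 and 7.24 CPM distally (log2 fold change -0.50, 95% interval -1.36 to 0.36).

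Fat1, known in mice for its part in muscle shape, was at 70.9, 76.2 and 86.3 CPM proximally and 64.8, 65.1 and 78.0 CPM distally. At a log2 fold change of -0.17 its 95% interval was -0.56 to 0.21. Fat3, best known from retinal neurons, was at 9.37, 12.7 and 8.63 CPM proximally and 3.96, 10.7 and 8.91 CPM distally (log2 fold change -0.39, 95% interval -1.27 to 0.49). The CELSR genes, which encode the cadherins of planar cell polarity, were too low to test, with 12 counts of Celsr1 and 30 of Celsr2 over the 6 libraries.

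Calsyntenins, membrane proteins of secretory vesicles and synapses with cadherin repeats, did not pass the test. Clstn1 was at 60.2, 81.7 and 82.7 CPM proximally and 72.2, 52.5 and 89.7 CPM distally (log2 fold change -0.07, 95% interval -0.57 to 0.43). Clstn3 was at 18.1, 12.7 and 24.8 CPM proximally and 20.8, 11.4 and 22.3 CPM distally (log2 fold change -0.04, 95% interval -0.79 to 0.70). Clstn2 had 39 counts and was not tested.

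Among the 28 untested members, single libraries lay between 0 and 9.37 CPM. In 4 of the 28 the regions did not overlap, against 17.5% of all 3646 genes too low to test, so the count is near the background. For 5 of the 28 the exact 95% interval of the ratio of pooled counts, distal over proximal, excluded 1, against 18.3% of those genes. The 4 without overlap were named after their values were seen and are given as values. Cdh10, a classical cadherin of the nervous system, had 2, 2 and 2 counts in proximal and 7, 6 and 8 in distal libraries (ratio 3.95, 1.54 to 11.9). Pcdh9, a delta protocadherin, had 4, 2 and 5 counts in proximal and 10, 7 and 6 in distal libraries (ratio 2.36, 1.10 to 5.36). In the other direction, Pcdh15, a protein of the tip links of inner ear hair cells, had 7, 4 and 17 counts in proximal and 2 in each distal one (ratio 0.242, 0.0818 to 0.595). Pcdhb3 had 5, 12 and 14 counts in proximal and 6, 2 and 3 in distal libraries (ratio 0.400, 0.181 to 0.818). Fitted without a filter on low counts, these 4 had edgeR adjusted p of 0.16, 0.44, 0.16 and 0.35, and none passed.

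Cdh5, the VE-cadherin of endothelium, had 1, 4 and 4 counts in proximal and 0, 0 and 4 in distal libraries, at or near the limit of detection. The 8 endothelial markers analysed, of 10 listed, summed to 39.5 to 46.8 CPM proximally and 22.1 to 27.9 CPM distally; 5 of the 8 had the higher mean in proximal libraries, and none was at 0 in all libraries of a region. The 10 neuronal and Schwann cell markers analysed, of 12 listed, summed to 23.7 to 43.1 CPM proximally and 41.6 to 70.8 CPM distally, although 7 of the 10 had the higher mean in proximal libraries. The parts of these cells in the low protocadherin and cadherin counts were not tested.

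Genes that work with these proteins are given beside them. The 50 tested partners came from lists of adherens junction proteins, planar polarity components, and enzymes of cadherin cleavage and turnover. Of these, 1 passed as higher in distal and 0 in proximal libraries, beside 1.11% and 2.27% of all 9512 genes tested. In edgeR, 2 of the 50 had an unadjusted p under 0.05, beside 1031 of the 9512 genes. The 3 desmosome genes analysed were too low to test. Wnt5a, a ligand of planar polarity signalling in limb outgrowth, was the one that passed. Its level was 50.2, 76.7 and 78.1 CPM proximally and 113, 161 and 131 CPM distally, with no overlap (log2 fold change of 0.97 with an SE of 0.21; edgeR adjusted p = 0.033). Wnt5a no longer passed when any library but distal library 3 was dropped (edgeR adjusted p = 0.052 to 0.15) or with library size alone as the scaling (0.089). The median log2 fold change was 0.02 over 21 adherens junction genes, -0.16 over 13 planar polarity genes and -0.22 over 16 cleavage and turnover genes, beside 0.01 over all genes.

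**Figure D5:**
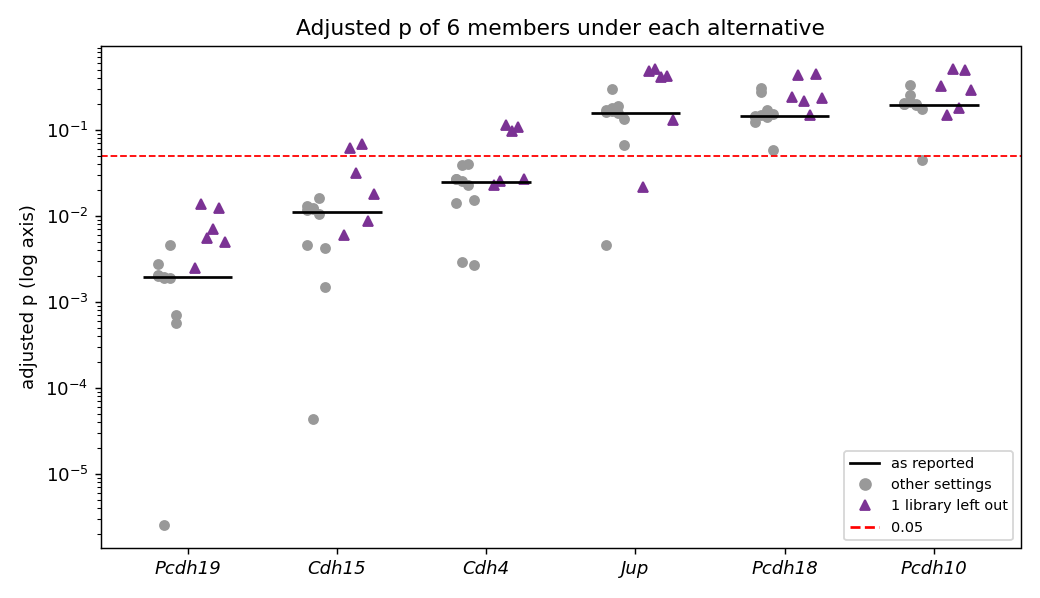
Adjusted p (log axis) of 6 members as reported (line), in fits that leave out 1 library (triangles) and in the other alternatives (circles), with a dashed line at 0.05. All Pcdh19 points lie below the line, at 2.56e-06 to 0.014, while 2 Cdh15 and 3 Cdh4 points rise above it.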

How the data were processed

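RNA of the sorted cells was profiled by bulk MARS-seq, which sequences transcript 3' ends, per the labels' protocols. Tools listed in the submitters' processing notes, without their roles, are DESeq2, HTSeq, TopHat2, cutadapt (1.8.3) and bcl2fastq (2.17.1.14), with mm10 as build; the gene annotation, strandedness of counting and handling of molecular barcodes were not given in the sources used here. Raw counts per gene, deposited by the authors, were used for all tests. The deposited normalized counts are a signal the authors obtained from them with 1 size factor per library, which was not used here. No column belonged to another series (0 unused).

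Regions were compared over the whole table with edgeR 4.0.16 in R 4.3.3: TMM, filterByExpr by region (minimum count 10, minimum total 15), robust quasi-likelihood F test with region as the only term, and Benjamini-Hochberg adjustment over 9512 genes. Log2 fold changes, computed from the deposited counts, are distal over proximal; SE is their size over the square root of F. Alternatives used DESeq2 1.42.0, limma 3.58.1 (voom), other scalings and filters, a replicate block, and left-out libraries. The procedure was also run on simulated data. Each gene was drawn independently there, so the simulation does not cover effects shared within a library. Members and gene lists were chosen with earlier results of these data known.

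Values per library were given, by rule, for members past the threshold, for up to 4 tested members of each family with the most counts, and for the smallest p of each family. Pcdh7, Pcdh8, Cdh5, Cdh10, Pcdh9, Pcdh15, Pcdhb3 and other untested members were added after their values were seen. Coordinates and overlaps came from GENCODE M21 (GRCm38, the assembly of mm10), which matched all 53 symbols.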

Additional observations from a re-analysis of the deposited data

How the results depend on the processing

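The fold changes of 23 named members were recomputed 362 times over the alternatives, and 345 kept their direction and their side of the threshold. With 1 library left out, the members called ranged from 1 to 4, those higher in proximal libraries from 1 to 4, and all genes called from 171 to 334 (171 without distal library 1, 174 and 190 without proximal libraries 2 and 3, 210 without distal library 2). Pcdh19 was the only member called without distal library 1. At an adjusted p of 0.01, 1 member (Pcdh19), higher in proximal libraries, and 143 genes were called. In the fit that dropped both proximal library 1 and distal library 3, 862 genes were called. With the replicate block, 1 member, Pcdh10, was called as higher in distal libraries, and 465 genes in all. Deviations of same-numbered libraries correlated at 0.354, -0.136 and 0.479, and those of different-numbered libraries at -0.597 to 0.359. The numbers were not taken as pairs, since not all same-numbered values were positive. Correlations of deviations centred over 3 libraries per region depend on each other and cannot decide whether the numbers mark pairs. Small fold changes turned sign with a library left out: they ranged from -0.13 to 0.20 for Cdh11, -0.26 to 0.10 for Clstn1, -0.25 to 0.26 for Clstn3 and -0.36 to 0.20 for Ctnnd1, which was 0.40 without proximal library 1 and distal library 3. The causes were not tested. In these alternatives the median over all genes stayed within 0.0201 of 0 on the log2 scale. The 28 untested members had too few counts to pass the filter.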
